A study of Mus musculus with 26 samples.

Results

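The genes described here are the immunoglobulin A (IgA) heavy chain gene Igha and 9 further genes that make, mark or move secreted antibody: Jchain, Igk, Igkv8-30, Ighm, Iglv1, Ighg3, Mzb1, Tnfrsf17 and Pigr. They were read by every probe set (a group of short probes for a transcript) whose annotation names that gene alone. This gave 31 of the 45101 probe sets on the array, among 34958 that name a single gene: 11 for Ighm, 4 each for Igk and Ighg3, 3 each for Igha and Iglv1, 2 for Pigr and 1 for each other gene. The genes were chosen by their measured levels, with earlier results of these same arrays in view, in which antibody genes read higher at later ages. Differences between ages in these 31 probe sets are therefore given as a description, without a p-value.

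The samples were lacrimal glands, the tear-producing glands, of male C57BL/6.NOD-Aec1Aec2 mice. This strain carries the NOD mouse regions Aec1 (Idd3) and Aec2 (Idd5) in a C57BL/6 background and develops a disease that resembles Sjögren's syndrome, in which autoimmunity damages the glands that make tears and saliva. All 5 groups had this genotype, no treatment was named, and no strain without the disease is analysed here, so age and disease stage cannot be told apart. The groups were 4 weeks of age, labelled pre-disease (4 arrays), 8 weeks, labelled early pre-clinical (6 arrays), 12 weeks, labelled as the first entry of leukocytes (6 arrays), 16 weeks, labelled the early clinical phase (5 arrays), and 20 weeks, labelled the onset of clinical disease with failing secretion (5 arrays). Each array is labelled a biological replicate. The sources used here do not say if glands of several animals were pooled for an array. Total RNA of whole glands was hybridised, so that fewer cells of a type and less RNA per cell cannot be told apart in any value below.

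In mucosal and glandular tissue, plasma cells below the epithelium release IgA as dimers held together by the joining chain. The polymeric immunoglobulin receptor on the basal side of the epithelial cells binds these dimers, and pentameric IgM, through the joining chain, carries them across the cell and releases them into the fluid with a piece of itself attached. In the lacrimal gland this is the route by which IgA reaches the tears. A light chain, kappa or lambda, pairs with each heavy chain.

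Values are log2 expression, so a difference of 1 is a 2-fold difference. A level under 4.04, which is 1 log2 unit above the typical array median, is called near background. The size of a difference that starts there is uncertain. The values of 2 arrays had a narrow spread. The standard deviation (SD) over probe sets was 1.36 for 20 weeks replicate 1 and 1.68 for 16 weeks replicate 4, while the remaining 24 arrays lay between 1.78 and 2.27. Their correlation with the other arrays of their age was 0.87 and 0.92, against 0.956 to 0.986 elsewhere. Most member results that rest on these arrays are given with and without them, while gene lists and other genes are mostly given with all arrays. The glands held lacrimal acinar genes at a list mean of 8.71 to 12.69, and the skeletal muscle list stayed near background at 3.14 to 3.76. Salivary gland genes varied from a list mean of 5.10 to 11.99 and adipose genes from 3.37 to 9.01 between arrays. The part of these tissues in the results below was not tested beyond the fits named with them.

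The plasma cell genes among the members were near background throughout. Mzb1, a chaperone of the secretory pathway in B lineage cells, lay between 1.91 and 2.79 on all 26 arrays. Its highest value was on 12 weeks replicate 4. Tnfrsf17, the receptor BCMA that keeps plasma cells alive, lay between 2.22 and 2.48. The transcription factors Prdm1 and Irf4, which drive plasma cell fate, were also near background on all 26 arrays, with highest values of 2.89 and 2.59. Pou2af1, a B lineage coactivator, was above background on 1 array, 12 weeks replicate 4, at 6.54. Sdc1, Tent5c, Eaf2 and Ell2 were above background on all 26 arrays, and epithelial cells express Sdc1 and Ell2 too. The transcription factor Xbp1 averaged 11.93, 12.27, 12.45, 11.37 and 11.87 from 4 to 20 weeks, but plasma and acinar cells share it. The values below are therefore those of antibody genes, and the arrays do not show plasma cells by Prdm1, Irf4 or BCMA.

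Igha, the constant region of the IgA heavy chain, was measured by 3 probe sets. On 1421653_a_at the 4 arrays at 4 weeks read 6.63, 6.26, 7.06 and 4.96. At 8 weeks the lowest of 6 arrays was 8.49, the median 9.22 and the highest 10.40. At 12 weeks they were 10.95, 11.73 and 11.94. Every array at 8 weeks was above every array at 4 weeks, and every array at 12 weeks was above every array at 8 weeks. The mean went from 6.23 ± 0.90 (SD, n = 4) to 9.41 ± 0.70 (n = 6) and 11.60 ± 0.39 (n = 6), a difference of 3.18 ± 0.60 (standard error, SE) for the first step and 2.19 ± 0.54 for the second. From 4 to 12 weeks this was a 41.5-fold difference.

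At 16 weeks the Igha arrays read 10.99, 11.95, 11.29, 8.84 and 11.69, and at 20 weeks 9.66, 11.14, 10.57, 12.35 and 13.10. Both ages overlapped with 12 weeks, and the low values were the narrow arrays. The means were 10.95 ± 1.24 (n = 5) and 11.37 ± 1.38 (n = 5), or 11.48 ± 0.42 (n = 4) and 11.79 ± 1.15 (n = 4) without the narrow arrays. The difference of 20 from 12 weeks was -0.24 ± 0.56 with all arrays and 0.19 without those arrays. Its sign thus turned with the narrow arrays, and in both forms it was smaller than the spread between arrays.

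The other Igha probe sets had the same order of ages up to 12 weeks. On 1425763_x_at the means were 3.25, 8.29, 10.88, 10.48 and 10.56 from 4 to 20 weeks. The 4-week mean was near background, so the size of its difference of 5.04 ± 0.67 at 8 weeks is uncertain. On 1421653_a_at, which started above background, this difference was 3.18. On 1429381_x_at they were 3.83, 6.93, 9.58, 8.19 and 8.72, with 3.99 on 16 weeks replicate 4 and 5.57 on 20 weeks replicate 1. On both, all arrays at 8 weeks stood above all at 4 weeks and all arrays at 12 weeks above all at 8 weeks.

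Jchain encodes the joining chain of IgA dimers and IgM pentamers. At 4 weeks its arrays read 3.22, 4.13, 3.44 and 3.41, near background on all but replicate 2. At 8 weeks the lowest, median and highest values were 4.42, 5.59 and 6.93, and at 12 weeks 7.46, 7.86 and 8.93. These 3 ages did not overlap. The 16-week arrays read 8.13, 9.15, 8.11, 7.68 and 8.31 and the 20-week arrays 5.35, 8.08, 8.49, 9.43 and 10.49, overlapping with 12 weeks at both ages. The differences were 2.02 ± 0.64 from 4 to 8 weeks, 2.48 ± 0.57 from 8 to 12 weeks, 0.22 ± 0.60 to 16 weeks and 0.09 ± 0.63 to 20 weeks. The first 2 steps were alike within their errors, with the first starting near background, and the later steps were smaller than their errors. Without the narrow arrays the later steps were 0.37 and 0.70, and the difference of 20 from 12 weeks was 1.07 against 0.32 with all arrays.

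The kappa light chain was read by 4 probe sets of Igk, the locus as a whole, and 1 of Igkv8-30, a kappa variable segment whose _x_at probe set can also bind related segments. Igkv8-30 read 2.50, 4.84, 4.16 and 3.75 at 4 weeks. Its lowest, median and highest arrays were 5.85, 6.71 and 7.65 at 8 weeks and 8.00, 8.91 and 9.29 at 12 weeks. At 16 weeks it read 9.44, 10.04, 9.11, 8.05 and 9.44. Its ages did not overlap up to 12 weeks. At 20 weeks it read 6.37 on the narrow replicate 1 and 9.84 to 11.03 on the other 4 arrays, all above the highest array at 12 weeks (9.29).

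Igk 1452557_a_at had its highest levels at 20 weeks. It read 2.91, 2.95, 3.00 and 2.93 at 4 weeks, all near background, then 3.48 to 5.30 at 8 weeks (median 4.24) and 4.37 to 7.40 at 12 weeks (median 5.78). The 16-week arrays read 7.33, 8.06, 7.66, 3.83 and 7.99, and the 20-week arrays 3.24, 8.23, 9.28, 10.28 and 9.62. The narrow arrays held the lowest value at both ages. Without them the means were 7.76 ± 0.34 (SD, n = 4) at 16 weeks and 9.35 ± 0.86 (n = 4) at 20 weeks, and every 20-week array was above every array at 12 and 16 weeks. The difference of 20 from 12 weeks was 2.10 ± 0.93 (SE) with all arrays and 3.33 without the narrow arrays, over 1.5 times as large. For Igha the same difference was 0.19 without them, and for Jchain 1.07. The 3 other Igk probe sets were near background except for 1 value, 4.83 on 16 weeks replicate 4.

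A further 3 probe sets named Igkv8-30 together with the kappa constant gene Igkc and other kappa genes, and were left out of the members. Up to 12 weeks their ages did not overlap. From 4 to 20 weeks 1452417_x_at averaged 3.74, 9.29, 11.46, 11.93 and 12.00, 1427455_x_at 4.36, 8.75, 11.28, 11.25 and 11.53, and 1427660_x_at 3.07, 9.15, 11.60, 10.56 and 11.85, with 5.49 on 16 weeks replicate 4. Without the narrow arrays the 16- and 20-week means were 12.01 and 12.71, 11.38 and 12.41, and 11.83 and 12.61 in the same order.

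**Figure D1:**
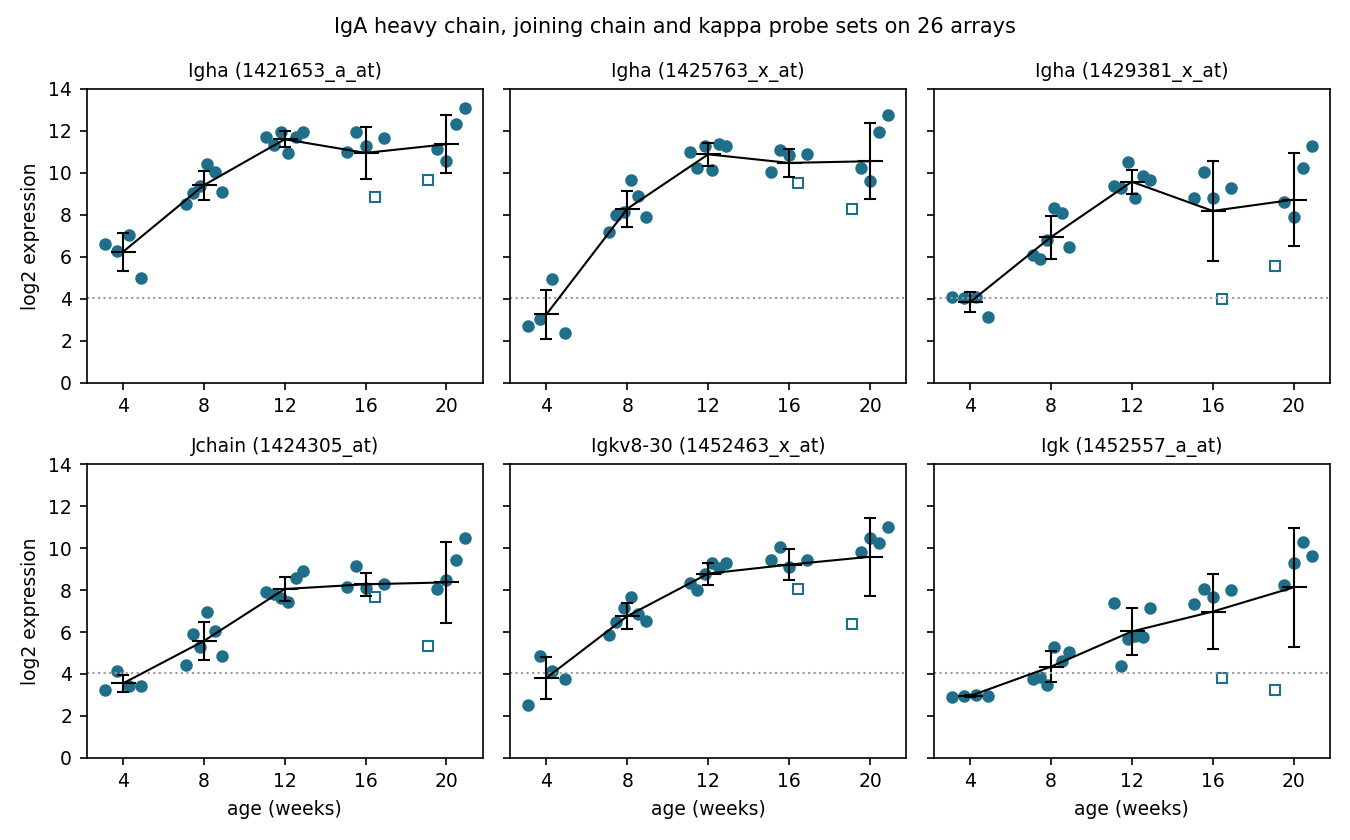
Log2 expression (vertical axis) of 3 Igha probe sets, Jchain, Igkv8-30 and Igk against age in weeks (horizontal axis), with 1 point per array; open squares are the narrow arrays 16 weeks replicate 4 and 20 weeks replicate 1, black marks and bars are the mean and SD of each age, and the dotted line is the near-background limit of 4.04. Igha and Jchain read higher at 8 than at 4 weeks and at 12 than at 8 weeks without overlap and then overlapped, while Igk read 8.23 to 10.28 on 4 of the 5 arrays at 20 weeks.

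IgM behaved differently from IgA. Ighm, the constant region of the IgM heavy chain, had 11 probe sets, 8 of which were near background in every age mean. On 1427351_s_at all 10 arrays at 4 and 8 weeks lay between 1.24 and 1.31. The 12-week arrays read 7.27, 1.26, 2.93, 7.10, 1.25 and 1.65, the 16-week arrays 1.29, 1.26, 3.19, 1.27 and 6.78, and the 20-week arrays 1.34, 7.50, 9.91, 8.27 and 9.02. Apart from 2.93 and 3.19, which lie between and are near background, the values were thus close to the floor or far above it. Above background were 0 of 4 arrays at 4 weeks, 0 of 6 at 8 weeks, 2 of 6 at 12 weeks, 1 of 5 at 16 weeks and 4 of 5 at 20 weeks. The array at the floor at 20 weeks was the narrow replicate 1.

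The 3 Ighm probe sets with a mean above background at some age differed in how many arrays reached the limit. It was reached on 7 of 26 arrays for 1427351_s_at, 4 for 1427329_a_at and 10 for 1425385_a_at. On 1427329_a_at it read 8.76 on 12 weeks replicate 4, 7.57 on 20 weeks replicate 3 and 7.46 on 20 weeks replicate 5. A lower value of 4.50 stood on 12 weeks replicate 1, and all other arrays were near background. On 1425385_a_at the mean was 3.73, 3.71, 4.15, 3.91 and 5.79 from 4 to 20 weeks, with 7.85 on 20 weeks replicate 3 and 6.82 on replicate 5. Its difference of 20 from 4 weeks was 2.06 ± 0.52, and every array at 20 weeks was above every array at 4 weeks.

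Iglv1, a lambda light chain variable segment, had its signal on 3 of the 4 arrays that were above background for Ighm 1427329_a_at. On 1447918_x_at it read 5.80 on 12 weeks replicate 4, 6.24 on 20 weeks replicate 3 and 5.46 on 20 weeks replicate 5, and 2.92 to 3.83 on the other 23 arrays. A probe set shared by Iglc1 and Iglv1, left out of the members, averaged 3.49, 3.47, 4.02, 4.49 and 4.61. Its highest values were 6.90 on 16 weeks replicate 5, 5.96 on 20 weeks replicate 4 and 5.34 on 12 weeks replicate 4, and the other 4 arrays at 16 weeks read 3.53, 4.87, 3.52 and 3.63. Ighg3, the IgG3 heavy chain, was near background on all 26 arrays by all 4 probe sets, between 2.74 and 3.96.

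Markers of B cells moved with the IgM signal on some of these arrays and not on others. Of 15 B cell genes on the table, 2 had a mean above background at some age. The B cell list mean ranged from 3.54 to 3.74 at 4 weeks, 3.34 to 3.56 at 8 weeks, 3.51 to 4.85 at 12 weeks, 3.51 to 3.77 at 16 weeks and 3.66 to 4.18 at 20 weeks. Its highest value was on 12 weeks replicate 4. That array also held the highest reading of 26 for Ms4a1, the B cell antigen CD20 (7.02, median 4.28), for Cd79a (6.67, median 2.70), for Cd79b (5.65, median 2.62) and for the IgM receptor Fcmr (5.54, median 2.14), as well as for the T cell gene Cd3d (4.63, median 2.15). Cd79a and Cd79b, which form the signalling part of the B cell receptor, were near background on the other 25 arrays, among them 20 weeks replicates 3 and 5, which held high values on all 3 of these Ighm probe sets. On 1427329_a_at the highest Ighm value was on 12 weeks replicate 4 itself. Cd22 and Pax5 were near background on all 26. On 20 weeks replicate 4, Ighm 1427351_s_at read 8.27. The B cell genes Tnfrsf13c (5.46, median 4.38) and Ebf1 (4.20, median 3.64) were highest there of all 26 arrays. Ms4a1 read 5.86 there, below only 12 weeks replicate 4, and 4.48 and 4.79 on 20 weeks replicates 3 and 5. The part of B cells in the IgM signal was not tested.

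**Figure D2:**
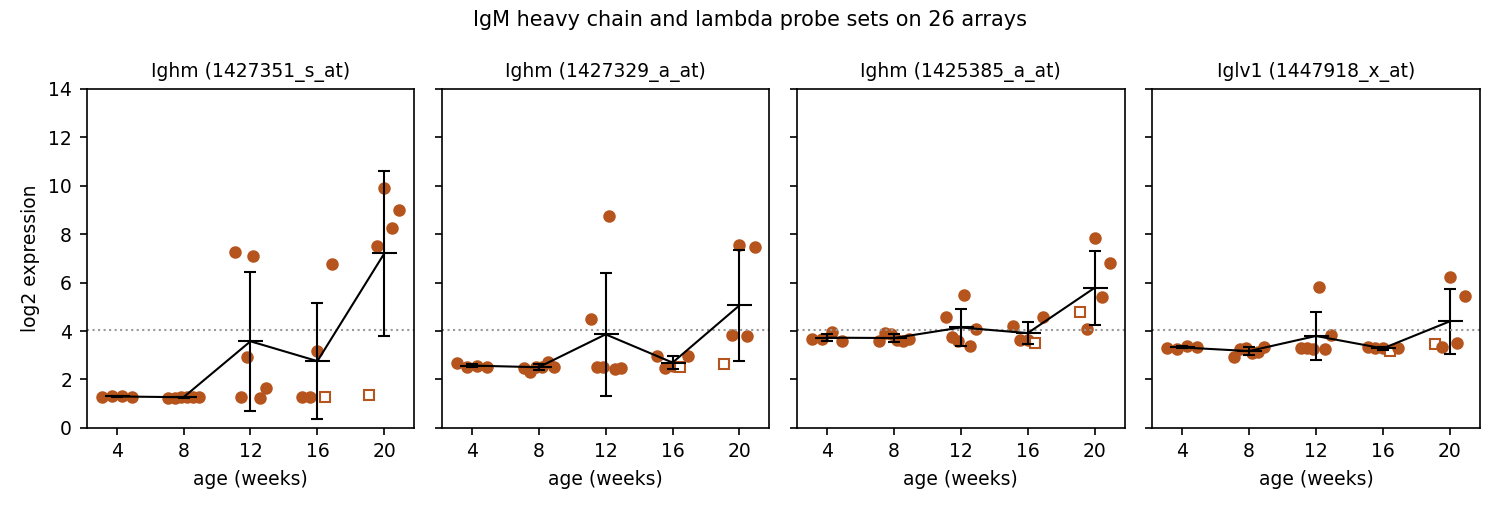
Log2 expression of 3 Ighm probe sets and Iglv1 against age in weeks, 1 point per array; open squares are the narrow arrays, black marks and bars are the mean and SD of each age, and the dotted line is the near-background limit. On Ighm 1427351_s_at 7 arrays lay between 6.78 and 9.91, 2 read 2.93 and 3.19 and all others were between 1.24 and 1.65, and 4 of the 5 arrays at 20 weeks were high.

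Pigr encodes the polymeric immunoglobulin receptor of the epithelium. On 1455490_at the arrays at 4 weeks read 9.56, 8.93, 10.21 and 11.45. At 8 weeks the lowest, median and highest were 11.31, 11.78 and 12.28, and at 12 weeks 12.06, 12.42 and 12.69. All arrays at 12 weeks stood above all at 4 weeks, with a difference of 2.34 ± 0.44 (SE). At 16 weeks the arrays read 11.00, 11.70, 11.42, 11.76 and 11.82, all below those at 12 weeks, a difference of -0.83 ± 0.42. At 20 weeks they read 9.70, 12.54, 12.58, 11.99 and 12.24, and overlapped with 12 weeks. The difference of 20 from 12 weeks was -0.56 ± 0.42 with all arrays and -0.03 without the narrow ones.

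The other Pigr probe set, 1450060_at, differed from it after 12 weeks. It read 4.99, 6.67, 6.99 and 10.42 at 4 weeks, 8.78 to 9.84 at 8 weeks and 8.86 to 10.85 at 12 weeks. It then read 6.69, 8.23, 6.55, 7.31 and 7.30 at 16 weeks and 5.85, 7.89, 7.80, 8.43 and 8.58 at 20 weeks. Every array at 16 and at 20 weeks was below every array at 12 weeks, by 2.74 ± 0.65 and 2.25 ± 0.65 (SE). Without the narrow arrays these differences were -2.77 and -1.78. At 20 weeks the probe sets thus disagreed on Pigr, with 1450060_at below its 12-week level and 1455490_at overlapping with it. The 3'-to-5' difference of the actin controls, a sign of RNA quality, also differed between ages. It averaged 2.90, 2.63, 3.69, 4.56 and 3.89 from 4 to 20 weeks. Its part in the Pigr values was not tested beyond the fit with it as a covariate given below. At 4 weeks both read highest on replicate 4 (10.42 and 11.45), the array with the lowest Igha value of all 26 (4.96). This is 1 array, and over all 26 the deviations of Pigr 1455490_at and Igha from their age means had r = 0.106.

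**Figure D3:**
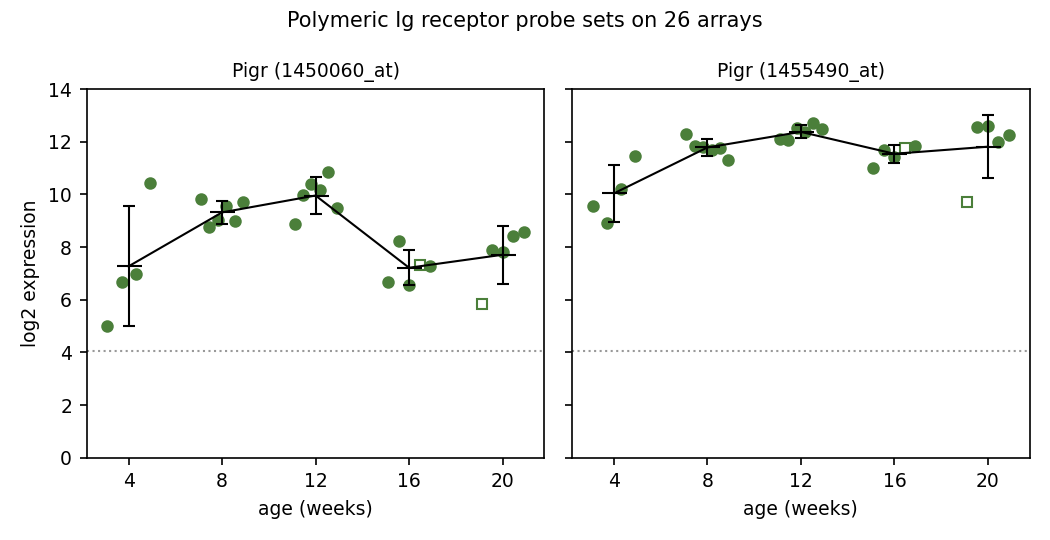
Log2 expression of the Pigr probe sets 1450060_at (left) and 1455490_at (right) against age in weeks, 1 point per array; open squares are the narrow arrays, black marks and bars are the mean and SD of each age, and the dotted line is the near-background limit. Both were lower on every 16-week array than on every 12-week array, and 1450060_at also at 20 weeks.

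The sequences before the start of Jchain and Pigr, the member with the clearest shared course with Igha and its epithelial partner, are shown for context. Of the 10 members, 3 had an entry in the RefSeq promoter table (build GRCm38.p6), the third being Tnfrsf17, whose level was near background. The 250 bases before each annotated start were searched on both strands for 4 motifs. These were the E-box CACGTG that upstream stimulatory factors bind, the octamer ATGCAAAT of immunoglobulin promoters, the TATA box TATAAA, and a paired GAAA element of interferon regulatory factors, with 2 bases of any kind between its copies. Matches are in capitals. The first is Jchain, on the minus strand at chr5:88527898-88528147, and the second is Pigr, on the plus strand at chr1:130826434-130826683.
Jchain: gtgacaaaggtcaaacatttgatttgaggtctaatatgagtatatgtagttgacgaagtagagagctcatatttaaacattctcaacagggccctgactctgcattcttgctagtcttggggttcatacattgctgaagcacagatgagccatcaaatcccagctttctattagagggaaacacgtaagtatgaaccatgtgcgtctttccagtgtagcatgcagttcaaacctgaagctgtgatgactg
Pigr: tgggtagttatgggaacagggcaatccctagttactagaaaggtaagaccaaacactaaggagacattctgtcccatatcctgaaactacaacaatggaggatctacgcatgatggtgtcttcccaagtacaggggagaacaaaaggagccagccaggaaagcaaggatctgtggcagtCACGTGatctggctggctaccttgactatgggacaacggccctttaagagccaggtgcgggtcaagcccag
The only match was CACGTG in Pigr, 71 to 66 bases before the start. These letters were held by 6.02% of 32851 windows of this length, the octamer by 1.6%, TATAAA by 12.4% and the paired GAAA element by 2.98%. A match is a description of the letters. Usf1, which encodes an upstream stimulatory factor, averaged 3.95, 3.90, 3.81, 3.89 and 4.06 from 4 to 20 weeks and did not pass the F test described below (adjusted p = 0.122, limma).

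The members were then set beside the whole array. A moderated linear model (limma) was fitted to the 20110 probe sets that named a single gene and were above the array median on at least 4 arrays. Of the 31 member probe sets 19 passed this filter, and 12 had a mean above background at some age. A probe set counts as called at a Benjamini-Hochberg adjusted p under 0.05 over all those tested. Over the 5 ages (F test) 10 of the 19 were called, with 14.9% of all probe sets called. At 8 against 4 weeks 3 were called, all higher, with 0.83% of all probe sets called higher, and 5 were called without 20 weeks replicate 1. At 12 against 4 weeks 7 were called higher (1.66% of all) and at 20 against 4 weeks 9 (0.975% of all). The arrays of the later age all stood above those at 4 weeks for 6 at 8 weeks (2.81% of all), 7 at 12 weeks (4.09% of all) and 8 at 20 weeks (1.42% of all). From 8 to 12 weeks none was called by limma, with 0.0199% of all called and 1043 of all at an unadjusted p under 0.05, and without 20 weeks replicate 1 this count was 2. Every array at 12 weeks was above every array at 8 weeks for 5 of the 19, with 0.264% of all probe sets. At 16 against 12 weeks 1 was called, the lower Pigr 1450060_at (2% of all called lower), and this count fell to 0 without 12 weeks replicate 3, 4 or 5 or 16 weeks replicate 1, 3, 4 or 5. Both Pigr probe sets were lower on all 16-week than on all 12-week arrays (2 of the 19, with 3.22% of all probe sets). From 16 to 20 weeks none was called by limma (0.00995% of all, with 1601 at an unadjusted p under 0.05), or 1 without 20 weeks replicate 1. At 20 against 12 weeks 5 were called, with 24.2% of all probe sets called. Of these 4 were higher (9.33% of all) and 1 lower (14.8% of all), and 1 of the 19 was lower on every array (4.27% of all). The lower one was Pigr 1450060_at. Of the 4 higher, Ighm 1425385_a_at was above background, while a further Ighm (0.25 higher), an Iglv1 (0.34) and an Ighg3 probe set (0.22) were near background in every age mean. The count of 5 ranged from 0, without 12 weeks replicate 5, to 7, without 12 weeks replicate 1 or 2. The members were chosen with these differences known, so nothing is read from the counts.

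**Figure D4:**
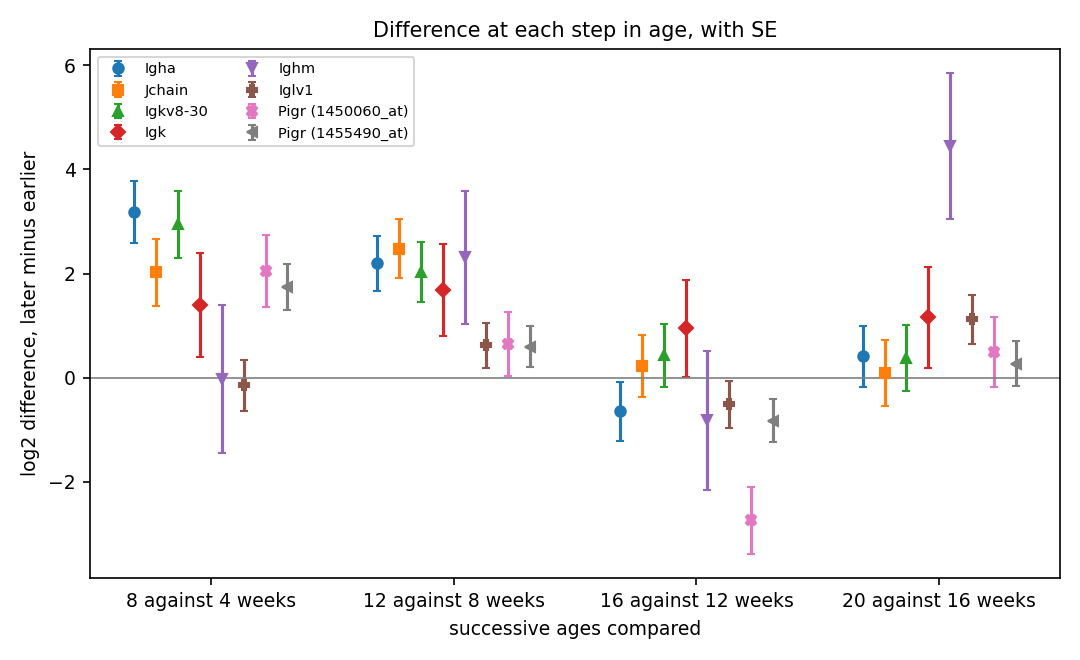
Log2 difference between successive ages (later minus earlier, vertical axis) for 8 member probe sets, with the SE of the fit as bars; Igha is 1421653_a_at, Igk 1452557_a_at, Ighm 1427351_s_at and Iglv1 1447918_x_at. Igha, Jchain and Igkv8-30 stood 2.02 to 3.18 higher at both of the first steps, Ighm 4.45 higher at the last step with an SE of 1.40, and Pigr 1450060_at 2.74 lower at 16 than at 12 weeks.

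Covariation between arrays of the same age was not used to choose the members, and was tested. Each gene was represented by its brightest probe set, the age mean was subtracted, and deviations were permuted within ages 100000 times (two-sided, adjusted over 9 relations). Over 26 arrays Jchain deviated with Igha at Pearson's r = 0.743 (permutation p = 0.00014, adjusted 0.00126) and Spearman's rho = 0.653 (permutation p = 0.00127, adjusted 0.00571). Igk followed at r = 0.728 (permutation p = 0.00057, adjusted 0.00256) and rho = 0.605 (adjusted 0.00571). Igkv8-30 had r = 0.633 (permutation p = 0.00491, adjusted 0.0147) and rho = 0.495 (adjusted 0.0612). Over all 26 arrays the joining chain and kappa genes thus read higher on arrays with more Igha than on other arrays of the same age. The arrays farthest from the median in Igha were the narrow ones, at -2.11 and -1.71, and without them Jchain kept r = 0.722 (permutation p = 0.001, adjusted 0.009). Igk then had r = 0.439 (adjusted permutation p = 0.134) with rho = 0.571 (adjusted 0.0278), and Igkv8-30 r = 0.364 (adjusted 0.434), so the linear relations of both kappa genes rested on those arrays. After quantile normalization, which gives every array the same spread, Jchain had r = 0.412 (adjusted permutation p = 0.343), Igk 0.293 and Igkv8-30 0.291, and none passed.

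Pigr showed no such relation with Igha. Its r was 0.106 (permutation p = 0.749, adjusted 0.786) with rho = -0.005, and without the narrow arrays r was -0.344 (adjusted permutation p = 0.434). Ighm 1425385_a_at had r = 0.125 and Iglv1 1427292_at r = 0.057 (both adjusted permutation p = 0.786). This Iglv1 probe set, the brightest, was near background in every age mean and is not the one with the lambda signal above. Ighg3, Mzb1 and Tnfrsf17, all near background, had r = -0.519 (adjusted permutation p = 0.0549), -0.139 (0.358) and -0.352 (0.341). None of these 6 passed.

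Igha was compared in the same way with 8 measures of tissue and array, adjusted over those 8. The macrophage list mean was the one that passed in Pearson's r, at 0.669 (permutation p = 0.00319, adjusted 0.0255), with rho = 0.53 (adjusted 0.118). Without the narrow arrays its r was 0.353 (adjusted permutation p = 0.622), so this relation rested on them. The macrophage list mean was itself lowest on 4-week arrays and on the narrow arrays of later ages, at 5.37 to 5.92 at 4 weeks, 6.03 on 16 weeks replicate 4 and 5.69 on 20 weeks replicate 1. The spread of the array had r = 0.522 (adjusted permutation p = 0.142), the lacrimal acinar list 0.417 (0.263), the 3'-to-5' difference of the actin controls, a sign of RNA quality, -0.391 (0.263), the T cell list -0.281 (0.492), the adipose list 0.2 (0.617), the B cell list -0.106 (0.617) and the salivary list -0.028 (0.904).

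**Figure D5:**
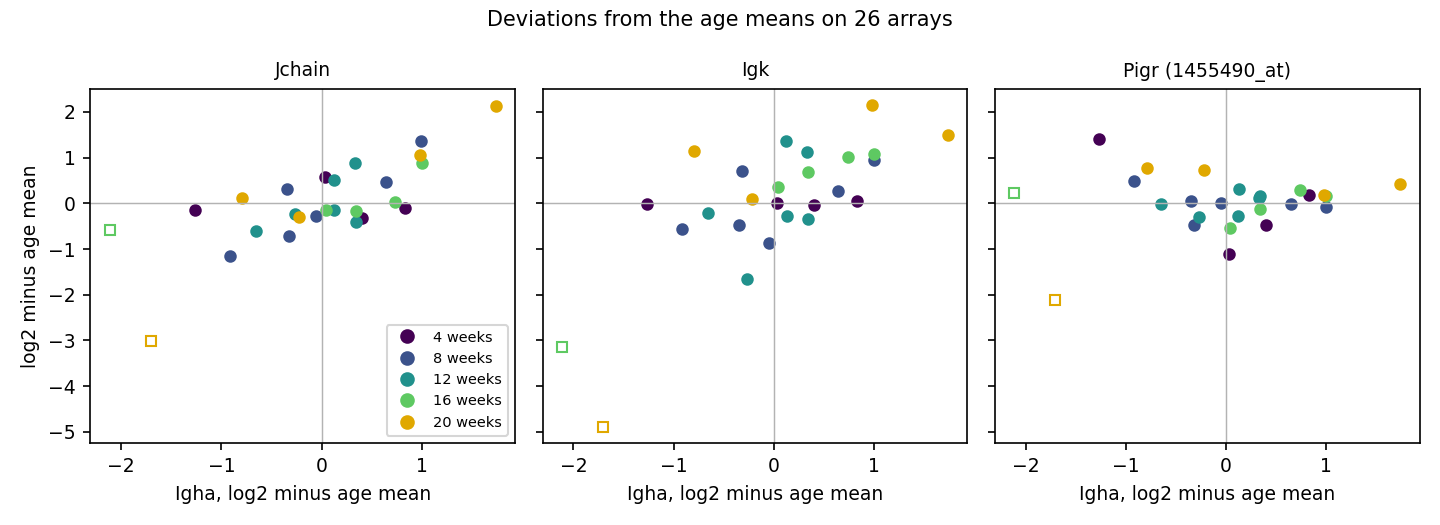
Deviation from the age mean (log2 units, vertical axis) of Jchain, Igk and Pigr 1455490_at against that of Igha 1421653_a_at (horizontal axis), 1 point per array and coloured by age; open squares are the narrow arrays. Jchain lay along a rising line with (r = 0.743) and without (r = 0.722) the open squares, Igk less closely without them (r = 0.439), and Pigr along none (r = 0.106).

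The genes most like Igha over all 26 arrays were taken from 12407 genes, each by its brightest probe set. These correlations share the arrays and the ages and are a description. Among the members Jchain had r = 0.922, Igkv8-30 0.913, Igk 0.798 and Pigr 0.646. Of the genes that are no antibody genes, the 10 highest were Csf1r (0.875), Ly6f (0.852), Lcn2 (0.851), Fgl2 (0.847), H2-Aa (0.847), Ccl9 (0.840), Ccl8 (0.839), Cdk19 (0.835), Ly86 (0.826) and Slco1a5 (0.825). Csf1r is the growth factor receptor of macrophages, H2-Aa a chain of the MHC class II molecule, and Ccl8 and Ccl9 are chemokines. In all, 20 genes exceeded 0.8. Of deviations from the age means, 2 genes exceeded 0.8, Csf1r (0.812) and Pgf (0.806), followed by St6galnac2 (0.792), Cyp4a12a (0.790), the macrophage antigen Adgre1 (0.780), Cyp27a1 (0.773), Pyroxd2 (0.770), Ctsh (0.765), Use1 (0.765) and Wfdc12 (0.765). This ranking is given with all 26 arrays only, and the narrow arrays lay farthest from the median in Igha. The macrophage list, which holds Csf1r and Adgre1, fell from r = 0.669 to 0.353 without them.

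Genes of the same pathway that are no members were tested from lists of plasma cell genes, endoplasmic reticulum genes, B cell genes, class switch and survival signals, plasma cell homing, the transport route of the receptor, inducers of the receptor and other antibody genes. The brightest probe set stood for each gene, and 60 genes passed the filter. These lists were drawn up with earlier results of these arrays known, so their counts and p-values are a description. Over the 5 ages 10 of 60 changed (limma F test, adjusted p under 0.05), with 14.9% of all probe sets, and without 20 weeks replicate 5 the count was 16. Called were 0 of 6 plasma cell genes, 2 of 9 endoplasmic reticulum genes, 0 of 6 B cell genes, 2 of 6 class switch and survival signals, 2 of 9 homing genes, 1 of 9 transport genes, 1 of 7 receptor inducers and 2 of 8 other antibody genes. Between single ages 1 of 60 rose at 8 against 4 weeks (0.83% of all probe sets). None was called at 12 against 8, 16 against 12 or 20 against 16 weeks. Of all probe sets 0.0199%, 2.29% and 0.00995% were called there, with 1043, 4096 and 1601 at an unadjusted limma p under 0.05. With shares called this small, none among 60 does not show that these genes stayed level. At 12 against 4 weeks 2 rose (1.66% of all) and at 20 against 4 weeks 3 (0.975% of all). At 20 against 12 weeks 8 rose and 8 fell (9.33% and 14.8% of all). Leaving out single arrays moved these counts to between 0 and 4 for 8 against 4 weeks, 0 and 3 for 16 against 12, 0 and 6 for 12 against 4, 0 and 5 for 20 against 4, and 5 and 24 for 20 against 12 weeks. The shares of all probe sets called without single arrays are not given, so nothing is read from these moves.

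Of the genes that draw plasma cells into a tissue, 2 of 9 changed over the ages, with 14.9% of all probe sets. Vcam1, the vessel wall molecule to which they attach, had means of 3.56, 4.86, 5.54, 5.99 and 5.10 from 4 to 20 weeks with SDs of 0.16 to 0.98, and changed over the ages (limma F test, adjusted p = 0.0154). Cxcr4, the chemokine receptor that holds plasma cells in their niches, averaged 3.20, 3.29, 3.59, 4.16 and 4.78 (adjusted p = 0.0289). All arrays of Cxcr4 at 20 weeks were above all at 4 weeks. Its call was lost without 20 weeks replicate 2 (adjusted p = 0.06), 3 (0.0544) or 4 (0.0752). Its ligand Cxcl12 averaged 5.36, 5.42, 5.96, 5.98 and 6.51 and did not pass (adjusted p = 0.0814). None of the other homing genes above background passed (limma F test). Ccl28, an epithelial chemokine for IgA plasma cells, averaged 10.29, 10.85, 10.70, 8.80 and 8.69 (adjusted p = 0.131). The integrin chain Itgb1 averaged 6.06, 6.12, 6.36, 5.56 and 5.46 (adjusted p = 0.317). Ccr9 averaged 5.13, 4.92, 4.98, 5.16 and 5.50 (adjusted p = 0.166), and Cxcl13 5.87, 5.66, 5.94, 5.85 and 5.90 (adjusted p = 0.541). The SD of Ccl28 was 0.30 to 0.66 up to 12 weeks, 2.72 at 16 weeks and 1.81 at 20 weeks.

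Other antibody genes had symbols that start with Igh, Igk or Igl. Antibody genes read higher at later ages in the earlier results, so the p-values here are no independent test. Igkv9-120, a kappa variable segment, averaged 3.25, 3.25, 3.31, 3.74 and 4.31 and changed over the ages (limma F test, adjusted p = 0.0184). It was highest on 20 weeks replicate 5 (5.59), the array with the highest Igha, Jchain and Igkv8-30 values. Igk-V21 (adjusted p = 0.00475) changed within the near-background range, from 3.21 at 4 to 3.68 at 20 weeks. Of the other 6, Igkv1-117 (limma F test, adjusted p = 0.0517) and Igkv6-14 (0.0887) came closest, with highest age means of 3.38 and 3.68. Igll1 had another course, highest at 4 weeks. It averaged 5.43, 4.24, 4.28, 3.88 and 4.90, near background at 16 weeks, and did not pass (adjusted p = 0.127).

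Of the endoplasmic reticulum genes 2 of 9 changed over the ages, and of the receptor's transport genes 1 of 9, with 14.9% of all probe sets. With all arrays, all 9 endoplasmic reticulum genes had a positive difference at 12 against 4 weeks (median 0.83, against 0.02 over all probe sets). At 20 against 12 weeks all 9 had a negative one (median -1.35, against -0.04). These medians are not given without the narrow arrays. Under the alternatives run, the difference of 20 from 12 weeks ranged from -2.15 to -0.58 for Edem1 and from -2.85 to -0.88 for Creld2. Edem1, which clears misfolded protein from the endoplasmic reticulum, averaged 9.58, 10.55, 10.41, 9.06 and 8.56 (limma F test, adjusted p = 0.029, and 0.0526 without 8 weeks replicate 4). Creld2, induced by stress of the endoplasmic reticulum, averaged 8.47, 9.70, 9.81, 8.67 and 7.21 (adjusted p = 0.0468). This call was lost, at 0.0506 to 0.0754, on leaving out any of 19 of the 26 arrays. Acinar cells use these genes as plasma cells do, and the acinar list mean was 11.3, 11.9, 12.3, 11.3 and 10.7 at the same ages. On the narrow arrays this mean was 9.6 (16 weeks replicate 4) and 8.71 (20 weeks replicate 1). The other 20-week arrays lay between 10.78 and 11.50. Rab25, a regulator of recycling and transcytosis in epithelial cells, averaged 7.86, 9.33, 9.07, 8.44 and 7.72 (adjusted p = 0.0112). The plasma cell gene with the smallest p was Eaf2, at 6.78, 7.67, 8.19, 6.36 and 6.37, which did not pass (adjusted p = 0.063).

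Among inducers of the receptor and survival signals, Relb, a subunit of the alternative NF-kappaB pathway, averaged 2.88, 4.33, 4.30, 3.09 and 2.92 (limma F test, adjusted p = 0.00326). Its mean was above background at 8 and 12 weeks only. Ltbr, a receptor that feeds this pathway, averaged 7.24, 8.01, 7.64, 7.07 and 6.94 (adjusted p = 0.00387). That change was lost after quantile normalization (adjusted p = 0.645). Tgfb1, the cytokine that directs switching to IgA, averaged 2.14, 3.42, 2.94, 2.18 and 2.37 and passed (adjusted p = 0.02), near background at all ages. Irf1, a factor that induces Pigr, averaged 5.99, 6.23, 6.83, 6.63 and 6.77 and did not pass (adjusted p = 0.0629).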

How the data were processed

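Expression was measured on 26 Affymetrix arrays, and the authors deposited a table of log2 values for 45101 probe sets. RMA and GCRMA are named, without version, in the submitters' processing notes. The sources used here do not say which of them made the deposited log2 values, which were used as deposited, with no further normalization. Genes were named from the platform annotation: 34958 probe sets had 1 symbol, 932 several and 9211 none listed. Probe sets with several symbols were left out of the members. The number of arrays limits the precision.

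The members and gene lists were chosen with earlier results of these data known. By the naming rule, genes were taken from every member, the 4 of each list with the smallest F p, and the 10 most like Igha over arrays and within ages. Not all of those are described. Ccl28, Itgb1, Ccr9, Cxcl13, Igll1 and Xbp1 are given beyond this rule. The B, T and plasma cell markers given by array were chosen after their values were seen. Genes named Iglon5 and Ighmbp2 are no antibody genes and were left out. One model of the 5 age means was fitted with limma 3.58.1 in R 4.3.3 to 20110 probe sets (above the array median on at least 4 arrays), with moderated tests and Benjamini-Hochberg adjustment. The p-values measure the spread between these arrays, which may be technical in part. Correlations used Python 3.11.15 with numpy 2.4.6 and scipy 1.17.1. The fit was tested on simulated data. Alternatives were other normalizations, filters, probe set rules, variance models, array weights, covariates and a replicate block, and each array left out. Replicate numbers were checked for pairing: deviations of same-numbered arrays had a median correlation of -0.077, so the numbers were not taken to pair arrays. Some genes of the lists are not reported here.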

Additional observations from a re-analysis of the deposited data

Results flagged for a closer look

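In 9 of 49 tested sets of arrays, a member probe set at 1 age, 1 array stood apart from the others by Dixon's test at the 95% level. Chance gives this for about 1 in 20 sets. Of the 9, 6 lay on the narrow arrays. On 16 weeks replicate 4, Igha 1429381_x_at read 3.99 against 8.79 to 10.03 on the others, and Igk 1452557_a_at read 3.83 against 7.33 to 8.06. On 20 weeks replicate 1, Igkv8-30 read 6.37 against 9.84 to 11.03, Ighm 1427351_s_at 1.34 against 7.50 to 9.91, Pigr 1450060_at 5.85 against 7.80 to 8.58 and Pigr 1455490_at 9.70 against 11.99 to 12.58. On 12 weeks replicate 4, Ighm 1427329_a_at read 8.76 against 2.42 to 4.50 and Iglv1 1447918_x_at 5.80 against 3.26 to 3.83. This array also held the highest Ms4a1, Cd79a and Cd79b values. On 4 weeks replicate 4, Igha 1429381_x_at read 3.13 against 4.03 to 4.10. The cause was not tested for any of these.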

How the results depend on the processing

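For the 12 member probe sets with a mean above background at some age, no called difference changed sign under the alternatives run. The other 7 of the 19 tested were not compared this way. Counts below are of 19 member probe sets and 60 related genes in the reported fit. The cause of each move was not tested. For most alternatives the share of all probe sets called is not given. A changed count there is not read as a result about these genes. Quantile normalization gave 3 related genes at 16 against 12, 1 at 20 against 16 and 5 at 20 against 4 weeks, and 1 member at 20 against 16 and 3 at 20 against 12 weeks. Under it Ltbr turned from -0.70 to 0.25 at 20 against 12 weeks. Centring arrays gave 1 related gene at 16 against 12, 0 at 20 against 4 and 10 at 20 against 12 weeks, and 2 members at 20 against 12. Without the filter there were 0 related genes at 8, 12 and 20 against 4 weeks, and, of all 31 member probe sets, 0 at 16 against 12 and 13 at 20 against 12, with 35.5% of all probe sets called. A filter at the 75th percentile gave 2 related genes at 8 against 4, 1 at 16 against 12, 1 at 20 against 4 and 10 at 20 against 12, and 3 members at 20 against 12. With 1 probe set per gene there were 6 members over the ages, 0 at 16 against 12, 4 at 12 against 4 and 2 at 20 against 12, and 1 related gene at 16 against 12. A trended, robust variance gave 1 related gene at 16 against 12. Array weights, whose estimate did not fully converge, gave 38 related genes over the ages, 20 at 8 against 4, 10 at 16 against 12, 2 at 20 against 16, 23 at 12 against 4 and 14 at 20 against 4, and 16 members over the ages, 9 at 8 against 4, 5 at 12 against 8, 4 at 16 against 12, 2 at 20 against 16, 11 at 12 against 4 and 9 at 20 against 12. They called 63.0% of all probe sets over the ages and 34.2, 0.646, 18.4, 1.97, 36.7 and 37.8% in these comparisons. Without both narrow arrays there were 20 related genes over the ages, 6 at 8 against 4, 10 at 12 against 4, 7 at 20 against 4 and 10 at 20 against 12, and 6 members at 8 against 4, 3 at 12 against 8 and 2 at 16 against 12. Array spread as a covariate gave 2 related genes at 8 against 4, 2 at 16 against 12, 1 at 12 against 4, 5 at 20 against 4 and 5 at 20 against 12, and 1 member at 12 against 8. Salivary and adipose levels as covariates gave 6 related genes over the ages, 0 at 8, 12 and 20 against 4 and 6 at 20 against 12, and 0 members at 16 against 12 and 1 at 20 against 12. The actin difference as a covariate gave 0 related genes at 8 against 4 and 0 members at 16 against 12. The replicate block gave 6 related genes over the ages, 0 at 8 against 4, 0 at 12 against 4 and 1 at 20 against 4, and 2 members at 20 against 12 weeks. Same-numbered arrays had a median correlation of -0.077 and 1 of 26 arrays correlated best with its own number. The numbers were therefore not taken to pair the arrays, though this check cannot exclude a small shared effect.

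Leaving out 1 array gave, for related genes, 8 to 16 over the ages, 0 to 4 at 8 against 4, 0 at 12 against 8, 0 to 3 at 16 against 12, 0 at 20 against 16, 0 to 6 at 12 against 4, 0 to 5 at 20 against 4 and 5 to 24 at 20 against 12 weeks. For members it gave 8 to 11, 2 to 5, 0 to 2, 0 to 1, 0 to 1, 6 to 8, 6 to 9 and 0 to 7 in the same order. The shares of all probe sets called are not given for these fits. Without the narrow arrays, which are also those farthest from the median in Igha, the within-age correlation with Igha was 0.439 for Igk, 0.364 for Igkv8-30, -0.107 for Ighm, -0.344 for Pigr, -0.006 for array spread, -0.033 for the adipose, 0.04 for the T cell, 0.353 for the macrophage and -0.314 for the acinar list. After quantile normalization it was 0.412 for Jchain, 0.293 for Igk, 0.291 for Igkv8-30, -0.046 for Ighm, 0.25 for Tnfrsf17, -0.34 for Pigr, 0.149 for the T cell, 0.354 for the macrophage and -0.28 for the acinar list, and array spread gives no value there. With centred arrays it was 0.065 for Tnfrsf17 and 0.002 for the salivary list. Signal limits the 19 member probe sets that were near background at every age.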
